A study of Homo sapiens with 6 samples.

Results

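The cytosolic ribosomal protein genes were taken from the table of estimated counts by their symbols. They are the protein-coding genes named RPL or RPS with a number, with or without closing letters, together with RPLP0, RPLP1, RPLP2 and RPSA. RPS6K kinases, pseudogenes and symbols that close with a letter and a digit were left out. The rule gave 82 of the 62438 genes in the table. Of these, 46 encode proteins of the large subunit (60S), 31 encode proteins of the small subunit (40S), and 5 are duplicate or tissue-restricted paralogs (RPL3L, RPL10L, RPL36AL, RPL39L and RPS27L). The 77 genes other than the paralogs are called canonical below.

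The experiment reduced N6AMT1, which the study describes as a methyltransferase that places N6-methyladenine on DNA. The human breast cancer cells, which carry the label MDA-MB-453, were transfected with 10 nM siRNA and harvested 48 h later. The 3 si-N6AMT1 libraries come from cells given siRNA against N6AMT1, and the 3 si-CN libraries from cells given a scrambled siRNA. All 6 passed through the same transfection reagent and a stranded kit for poly(A) mRNA. The cells of a group are described as triplicate, without saying whether they were separate cultures, so p-values measure the spread between these libraries, which may be technical. Each group rests on 1 line and 1 siRNA label.

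The cytosolic ribosome translates the mRNAs of the nucleus. Its small subunit reads the mRNA and its large subunit joins the amino acids. Each carries a fixed set of proteins, most of them in about equal number, and their genes are transcribed at high levels in dividing cells. Most of these mRNAs start with a pyrimidine tract, the 5′ terminal oligopyrimidine or TOP motif, through which mTORC1 and the RNA-binding protein LARP1 control their translation and stability. Many of the genes also carry small nucleolar RNAs (snoRNAs), the guides of rRNA modification, within their introns.

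Library totals ran from 19739247 to 21289740 counts. N6AMT1 fell from 6.80 ± 0.145 CPM (counts scaled to the TMM-adjusted library size, SD, n = 3) in si-CN to 3.17 ± 0.312 CPM in si-N6AMT1, a log2 fold change of -1.10 (SE 0.119), with no overlap between groups. Levels per length are given as TPM, estimated here from transcript lengths. Among luminal markers, KRT8 stood at 683 TPM and KRT18 at 652 TPM in si-CN, whereas GATA3 stood at 1.73 TPM and KRT19 at 0.716 TPM. Of the basal markers, KRT5 stood at 686 TPM and KRT14 at 135 TPM, so GATA3 and KRT19 were low in cells that carry this label. Markers also moved between groups, with 3 of 8 tested luminal markers higher and 1 lower, and 3 of 5 basal or mesenchymal markers higher and 0 lower. Among all genes tested, 9.78% were higher and 11.5% lower. Log2 fold changes ran from -0.12 to 0.54 in the luminal list. In the basal or mesenchymal list they ran from -0.05 to 0.18, with KRT5 at 0.11 and KRT14 at 0.18. The part of these markers in the results was not tested.

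The question for these genes was whether N6AMT1 knockdown moved the ribosomal protein mRNAs, and whether it moved them together. A gene was called where edgeR's quasi-likelihood test over all 17320 genes with enough counts gave a false discovery rate (FDR, the Benjamini-Hochberg adjusted p) under 0.05. All members but RPL10L, a testis paralog with counts of 0, 1 and 0 in si-N6AMT1 and 0, 1 and 1 in si-CN, could be tested, which left 81. Of the 81, 22 were higher in si-N6AMT1 (27.2%) and 7 were lower (8.64%), against 9.78% higher and 11.5% lower among all genes tested. Most of those genes have far fewer counts. A further set held 935 other protein-coding genes at 100 CPM or more, with a coding sequence no longer than that of the longest canonical member. Of these, 25.7% were higher and 23.5% lower. The share of members called higher was near theirs, and the share of members called lower was below theirs. These genes share a minimum level and were not matched to the levels of the members. The other 52 members were not called. Changes were small. Members called higher rose by 5.03% to 15.0%, and members called lower fell by 4.01% to 12.1%. The standard error of a canonical member was 0.0262 on the log2 scale at the median.

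Both subunits had members in each direction. In the 60S group 10 of 46 were higher (21.7%) and 4 lower (8.70%). In the 40S group 10 of 31 were higher (32.3%) and 3 lower (9.68%). Of the 4 paralogs tested 2 were higher and 0 lower. Among all genes tested 9.78% were higher and 11.5% lower, and among the 935 other genes above 25.7% and 23.5%. Log2 fold changes had medians of 0.04 in the 60S group and 0.04 in the 40S group, beside 0.0039 over all genes tested. The fold change was above 0 in 56 of the 81 members, in 8812 of the 17320 genes tested and in 496 of the 935.

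**Figure D1:**
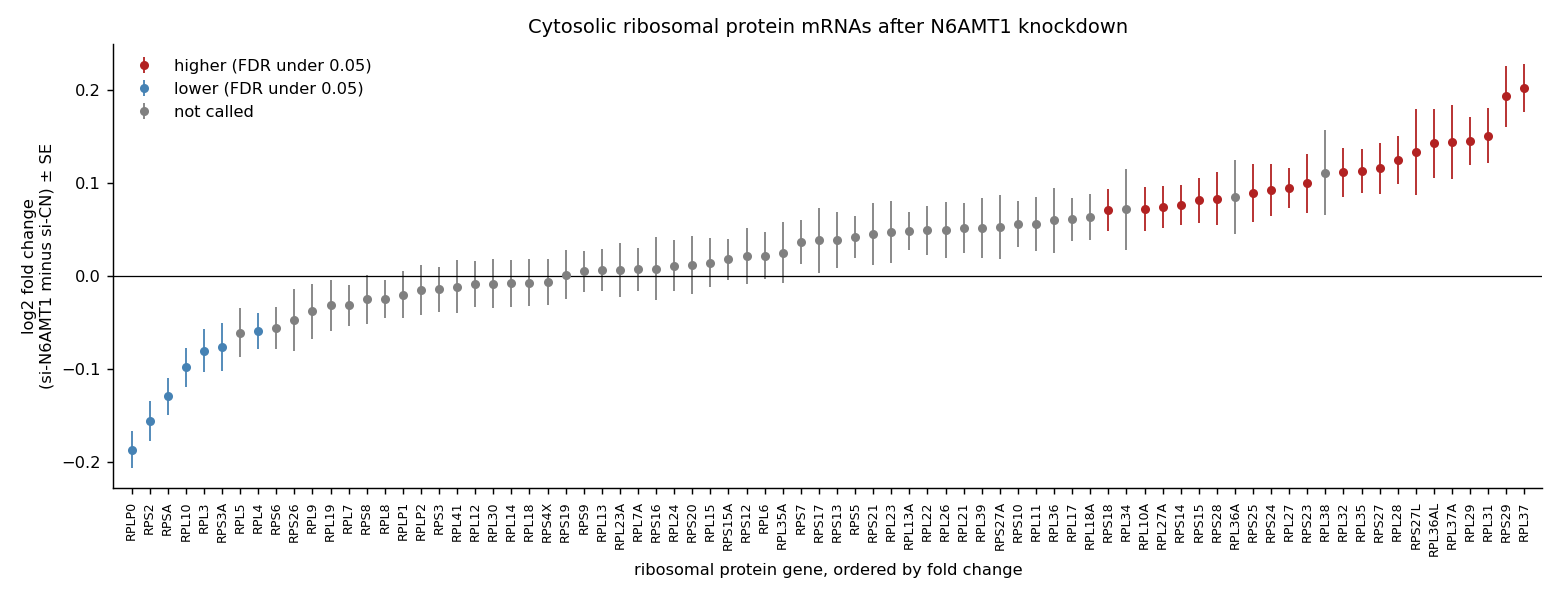
Log2 fold change (si-N6AMT1 minus si-CN, y axis) with its standard error for 78 tested members in order of size, with members called higher in red, called lower in blue and not called in grey. RPLP0 lies lowest at -0.19 and RPL37 highest at 0.20, and the called members sit at both ends of a continuous range; RPL3L and RPL39L are left out because their errors are about as wide as the whole axis, and 1 further member is not shown.

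The total did not separate the groups. Members took 4.02%, 4.19% and 4.12% of the counts in si-N6AMT1 libraries 1 to 3, and 4.15%, 4.01% and 3.95% in si-CN libraries 1 to 3. The library si-CN 1 thus lay above both si-N6AMT1 1 and si-N6AMT1 3. The mean shares were 4.11% ± 0.0856 and 4.04% ± 0.104 (SD, n = 3), with an exact two-sided permutation p of 0.4, where 3 against 3 libraries can give no p under 0.1. The median member stood at 0.05 on the log2 scale above its si-CN mean in si-CN 1 and at 0.07 above it in si-N6AMT1 2, the highest library of each group. In bulk RNA, a change in the number of cells that express a gene and a change in RNA per cell cannot be told apart.

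The count of members called higher moved with single libraries. It was 9 without si-N6AMT1 2, 10 without si-CN 3, 14 without si-N6AMT1 3, 14 without si-CN 2, 25 without si-N6AMT1 1 and 31 without si-CN 1. As shares these were 11.1%, 12.3%, 17.3%, 17.3%, 30.9% and 38.3% of the members tested. Among all genes in the same fits the shares were 7.54%, 7.30%, 7.39%, 7.65%, 8.55% and 8.41%. Shares among other protein-coding genes at 100 CPM or more are not given for these fits. The count called lower was 4 without si-N6AMT1 1 and 4 without si-CN 1. That was 4.94% of the members in each, beside 10.2% and 9.99% of all genes. When libraries were scaled by the summed counts of the members, so that each value is relative to the other ribosomal protein mRNAs, 10 members were higher and 5 lower, against 5.18% higher and 8.99% lower among all genes under that scaling. There were 8 members called higher under every setting other than this scaling (RPL27, RPL28, RPL29, RPL31, RPL32, RPL37, RPS27 and RPS29) and 4 called lower under each of them (RPL10, RPLP0, RPS2 and RPSA).

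Among members called, the largest fall was in RPLP0 (chr12:120634502-120639038, minus strand, GRCh37), which holds the RPLP1 and RPLP2 dimers in the stalk that recruits elongation factors and is often used as a reference gene in qPCR. It measured 859, 853 and 868 CPM in the si-N6AMT1 libraries and 995, 969 and 973 CPM in the si-CN libraries. Every si-N6AMT1 library was below every si-CN library by far more than the spread within a group. The fall was 12.1%, a log2 fold change of -0.19 (SE 0.0200, edgeR FDR 3.1e-07). Its partners in the stalk did not follow it past the threshold. RPLP1 gave -0.02 (SE 0.0257, FDR 0.649) and RPLP2 gave -0.02 (SE 0.0273, FDR 0.761), and their libraries overlapped between groups.

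In the 40S subunit, RPS2, a protein beside the channel through which mRNA enters, measured 945, 972 and 944 CPM in si-N6AMT1 and 1091, 1058 and 1038 CPM in si-CN. The gene lies at chr16:2012059-2014842 (minus strand), and its log2 fold change was -0.16 (SE 0.0218, FDR 1.25e-05). RPSA, which also occurs outside the ribosome as a laminin-binding protein, measured 800.1, 798 and 819.9 CPM in si-N6AMT1 and 880.4, 887 and 877 CPM in si-CN. Its log2 fold change was -0.13 (SE 0.0200, FDR 4.52e-05; chr3:39448207-39467746, plus strand). For both genes the groups were well apart. RPS3A, on the solvent side near the mRNA exit, measured 395, 411 and 415 CPM in si-N6AMT1 and 446, 416 and 425 CPM in si-CN. Its groups were apart only narrowly, its log2 fold change was -0.08 (SE 0.0257, FDR 0.0375), and it was called in 2 of 6 fits that left out a library.

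Of the 60S proteins that fell, RPL10, among the last to be added to the subunit in the cytoplasm, measured 520.3, 504 and 514 CPM in si-N6AMT1 against 547, 555 and 545 CPM in si-CN, a log2 fold change of -0.10 (SE 0.0210, FDR 0.00139). RPL3, which reaches towards the site of peptide bond formation, measured 637, 666 and 669 CPM against 709, 692 and 683 CPM. RPL4, whose long extension lines the exit tunnel, measured 996, 1005 and 1007 CPM against 1055, 1034 and 1045 CPM. In each of these genes all 3 si-N6AMT1 libraries were below all 3 si-CN libraries. The log2 fold changes were -0.08 for RPL3 (FDR 0.0136) and -0.06 for RPL4 (FDR 0.0328), and RPL4 kept its call in 1 of 6 fits that left out a library. All 7 members called lower were thus apart between groups. The share of all genes tested with every si-N6AMT1 library below every si-CN library was 18.0%, and among the members it was 8 of 81, the other being RPS6 (log2 fold change -0.06, FDR 0.085, named here after its values were seen).

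RPL5 and RPL11, which enter the ribosome together with 5S rRNA, were not called. RPL5 measured 457, 481 and 465 CPM in si-N6AMT1 and 510.5, 479.7 and 475 CPM in si-CN, with a log2 fold change of -0.06 (SE 0.0263, FDR 0.108). RPL11 measured 879, 948 and 858 CPM against 891, 843 and 849 CPM, with a log2 fold change of 0.06 (SE 0.0288, FDR 0.188). The groups overlapped for each gene, and the fold changes had opposite signs.

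Among members called, the largest rise was in RPL37, a small zinc-binding 60S protein (chr5:40825364-40835324, minus strand). It measured 371, 389 and 368 CPM in si-N6AMT1 and 337, 325 and 319 CPM in si-CN. The groups were apart, and the rise was 15.0%, a log2 fold change of 0.20 (SE 0.0256, FDR 3.32e-06). RPS29, a zinc-binding 40S protein encoded at chr14:50037702-50065882 (minus strand), measured 111, 115 and 110.4 CPM against 101, 100.3 and 92.5 CPM. Its rise was 14.3%, a log2 fold change of 0.19 (SE 0.0329, FDR 0.000137). Its groups were apart as well.

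Further 60S members followed. RPL31, at the rim of the exit tunnel, measured 263, 279 and 266 CPM in si-N6AMT1 and 255, 235 and 237 CPM in si-CN (log2 fold change 0.15, SE 0.0293, FDR 0.000546). RPL29 measured 399, 394 and 409.9 CPM against 379, 354 and 355 CPM (0.14, SE 0.0258, FDR 0.000228). RPL28, a protein with no counterpart in budding yeast, measured 339, 355 and 359 CPM against 330.5, 324 and 312 CPM (0.13, SE 0.0257, FDR 0.000956). In all 3 genes si-CN 1 was the highest control library but stayed below each si-N6AMT1 library. RPL37A, another zinc-binding 60S protein, did not have this separation. It measured 247, 264 and 252 CPM against 254, 215 and 223 CPM, so that si-CN 1 lay above 2 of the si-N6AMT1 libraries. Its log2 fold change was 0.14 (SE 0.0399, FDR 0.0115), and DESeq2 gave an adjusted p of 0.208.

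The other canonical members called higher had log2 fold changes from 0.07 to 0.12. In the 60S subunit they were RPL35, RPL32, RPL27, RPL27A and RPL10A. In the 40S subunit they included RPS27, RPS23, RPS24, RPS25, RPS28, RPS15, RPS14 and RPS18. Of the 22 members called higher, 16 had every si-N6AMT1 library above every si-CN library. Among all members this held for 19 of 81, and among all genes tested for 16.8%. Thus the share of members with separated groups was closer to the background than the share called.

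**Figure D2:**
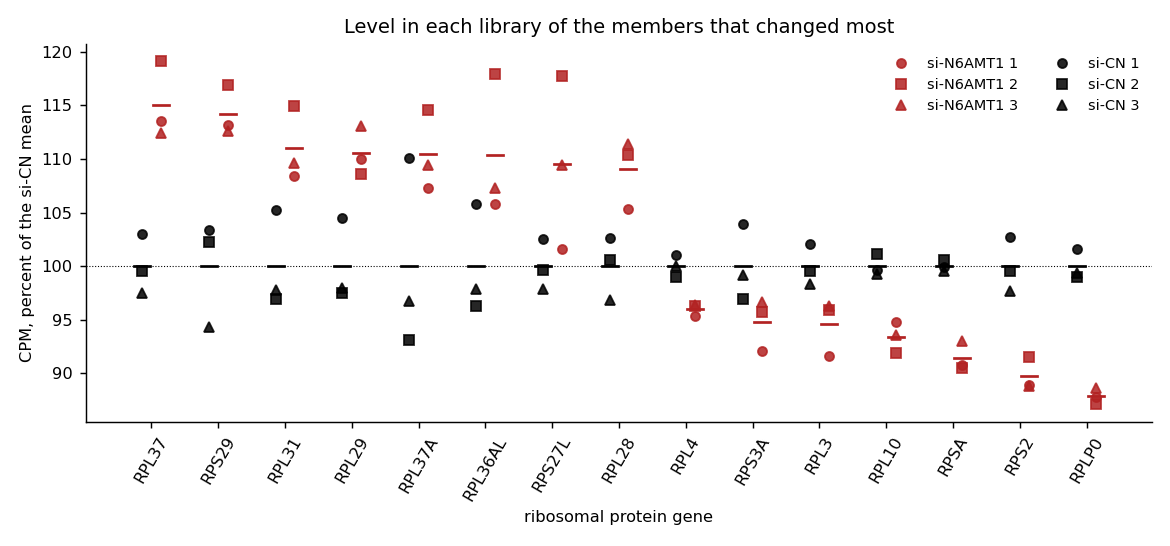
Level of the 8 members with the largest called rise and of the 7 called lower, as percent of the si-CN mean (y axis), with 1 symbol per library (si-N6AMT1 red, si-CN black) and short lines for the group means. The 3 si-N6AMT1 libraries sit under the si-CN libraries for all 7 lower members, while si-CN 1 reaches into the si-N6AMT1 range for RPL37A, RPL36AL and RPS27L.

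Of the paralogs, RPL36AL, an almost identical copy of RPL36A, measured 152.1, 169.6 and 154 CPM in si-N6AMT1 and 152.2, 139 and 141 CPM in si-CN (log2 fold change 0.14, SE 0.0370, FDR 0.00702). RPS27L, the copy of RPS27, measured 47.0, 54.4 and 50.6 CPM against 47.4, 46.1 and 45.3 CPM (0.13, SE 0.0461, FDR 0.0422). In both, si-N6AMT1 1 was below si-CN 1 and the groups overlapped. RPS27L was called in 2 of 6 fits that left out a library and not by DESeq2 (adjusted p 0.135). RPL39L, which is best known from testis, had counts of 23, 13 and 8 against 11, 11 and 14, and RPL3L, which replaces RPL3 in heart and skeletal muscle, had counts of 13, 5 and 10 against 9, 12 and 16. At these counts neither could have shown a change of the size seen in the other members, and their log2 fold changes were 0.28 (SE 0.370, FDR 0.655) and -0.40 (SE 0.387, FDR 0.529).

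Close paralogs of some members have symbols outside the rule. RPL22L1, the paralog of RPL22, measured 122, 134 and 133 CPM in si-N6AMT1 and 105, 95.4 and 103 CPM in si-CN, a log2 fold change of 0.36 (SE 0.0367, FDR 1.52e-07). That is larger than the change of any canonical member, and the groups were apart. RPL22 itself was not called (log2 fold change 0.05, FDR 0.212). As a ratio within each library, RPL22L1 over RPL22 counts were 0.284, 0.292 and 0.297 in si-N6AMT1 and 0.237, 0.229 and 0.238 in si-CN. RPL7L1 (0.06, FDR 0.106) and RPL26L1 (0.15, FDR 0.156) were not called.

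Per length, the highest members in si-CN were RPL41 (4796 ± 135 TPM), which encodes the shortest ribosomal protein, RPL26 (3578 ± 146 TPM), RPS24 (3514 ± 144 TPM), RPS27 (3020.3 ± 86.5 TPM) and RPL19 (2445 ± 94.0 TPM; all SD, n = 3). RPL26 and RPS24 did not differ in level beyond their spread, whereas RPL41 stood above both. With lengths from the reference transcripts instead, RPL41 had 3704 TPM and stood below RPL26 (3983 TPM) and RPS24 (3912 TPM), so its rank rests on the transcript chosen. Among these 5, RPS24 (log2 fold change 0.09, FDR 0.0197) and RPS27 (0.12, FDR 0.00314) were called higher. RPS27 kept its call in all 6 fits that left out a library and RPS24 in 2 of them, and DESeq2 gave RPS24 an adjusted p of 0.173. RPL41 (-0.01, FDR 0.832), RPL26 (0.05, FDR 0.282) and RPL19 (-0.03, FDR 0.48) were not. Over the 69 canonical members for which the transcript used for the length had at most 2000 bases, levels ran from 300.1 to 4796 TPM. Their median was 1358 TPM. At the other end stood RPS27L at 15.2 TPM, RPL39L at 1.81 TPM and RPL3L at 0.567 TPM. For 10 members, RPL37, RPL37A, RPS23 and RPS27L among them, the transcript used for the length had over 2000 bases, so their level per length may be understated. In all, 41 of the 100 protein-coding genes with the highest level in si-CN were canonical members.

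The members that fell and the members that rose differed in length. This pattern was noticed in these data, so it is described without a test. The 7 lower members had coding lengths from 642 to 1281 bases with a median of 885, and the 20 canonical members called higher from 168 to 651 bases with a median of 406.5. The median of all 77 was 456 bases. Of the 39 canonical members at or under that length 17 were higher and 0 lower, and of the 38 over it 3 were higher and 7 lower. Among the other genes at 100 CPM or more and no longer than the longest member, 36.7% of the 158 at or under 456 bases were higher and 17.1% lower, and of the 777 over it 23.4% were higher and 24.8% lower. The shares in the members were 43.6% higher for the shorter ones, and for the longer ones 7.89% higher and 18.4% lower. Across the 77 genes, which are not independent replicates, Spearman's correlation between log2 fold change and coding length was -0.59. It lay between -0.69 and -0.51 when each library was left out in turn, with -0.69 without si-CN 1 and -0.51 without si-CN 3.

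With other gene features, the same correlation of the log2 fold change was -0.56 for the number of exons, -0.31 for the number of snoRNAs within the gene, -0.16 for transcript length and -0.09 for GC content of the transcript. A snoRNA lies within 6 of the 7 lower members and within 4 of the 20 higher ones, and within 29 of all 77. RPLP0, with the largest called fall, is the lower member with 0 snoRNAs within it. Among 2231 other protein-coding genes at 100 CPM or more, the correlation with coding length was -0.20, and among the 935 of these no longer than the longest member it was -0.14. In the class of coding lengths over 600 and up to 900 bases, the median log2 fold change was -0.01 in members and 0.02 in the other genes, while in the class up to 300 bases the medians were 0.11 and 0.03. RPL41, with 75 coding bases, was an exception among the shortest members.

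The contrast between short and long members could also be read within each library, where scaling between libraries has no part. Counts summed over the 39 shorter members, divided by those summed over the 38 longer ones, gave 0.796, 0.813 and 0.795 in si-N6AMT1 and 0.774, 0.750 and 0.749 in si-CN. The ratio of RPL37 to RPLP0 counts was 0.432, 0.457 and 0.423 against 0.338, 0.336 and 0.328, and that of RPS29 to RPS2 was 0.118, 0.118 and 0.117 against 0.0929, 0.0948 and 0.0891. None of these ratios overlapped between groups, although the genes of the single ratios were picked for their changes and the length split was noticed in the same fold changes. The share of member counts that came from 60S genes was 64.8%, 64.8% and 64.6% against 64.7%, 64.5% and 64.7%, which overlapped.

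The start sites of members that fell and of members that rose are shown to compare their TOP motifs. Each line holds 10 bases before the start site and 20 from it, from the RefSeq promoter table (GRCh38.p14), and capitals mark an unbroken run of at least 5 pyrimidines that begins with C at the start site. Positions are chr12:120201092-120201121 (minus strand) for RPLP0, chr3:39406710-39406739 (plus) for RPSA, chrX:154398367-154398396 (plus) for RPL10, chr22:39319604-39319633 (minus) for RPL3, chr2:101002279-101002308 (plus) for RPL31, chr3:51995876-51995905 (minus) for RPL29, chr1:153990752-153990781 (plus) for RPS27 and chr15:63157458-63157487 (minus) for RPS27L.
RPLP0: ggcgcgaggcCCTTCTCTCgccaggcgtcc
RPSA: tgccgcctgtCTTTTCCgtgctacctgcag
RPL10: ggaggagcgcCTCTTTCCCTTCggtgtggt
RPL3: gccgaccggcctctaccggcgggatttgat
RPL31: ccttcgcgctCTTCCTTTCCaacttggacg
RPL29: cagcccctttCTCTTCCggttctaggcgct
RPS27: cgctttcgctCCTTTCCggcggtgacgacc
RPS27L: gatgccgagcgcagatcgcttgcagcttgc

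Lower and higher members alike carried such a run, of 9 bases in RPLP0, 12 in RPL10 and 10 in RPL31, while the RPL3 start site begins with 4 pyrimidines, short of the motif, and the RPS27L start site begins with none. The motif searched was a C at the start site followed by at least 4 pyrimidines (C or T), on the strand of the gene. Of 65 members with a listed start site 46 had it (70.8%), against 5.14% of 27305 genes in the table. Members with the motif had a median log2 fold change of 0.05 (46 tested), and members without it 0.05 (18 tested). It was present in 12 of 20 members called higher and in 4 of 6 called lower that had a listed start site. The presence of the motif did not divide the members by direction.

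In 3′ UTRs, the 7-base sequences TTCACAT and TCACATA were looked for because they had been picked earlier on fold changes of these same libraries. A count in their favour is therefore no independent evidence. They occur in 6 of the 81 tested members (7.41%) and in 22.2% of 13306 tested protein-coding genes, whose 3′ UTRs are longer, with a median of 1320.5 bases against 158 in the members. The sites nearest the stop codon are shown with up to 8 bases on each side, with the site in capitals, from GENCODE v44 on GRCh37: chr5:40832191-40832197 (minus strand) in RPL37, chr2:217367163-217367169 (plus) in RPL37A, chr5:81570909-81570915 (minus) in RPS23, chr19:55902435-55902441 (plus) in RPL28, chrX:100650910-100650916 (plus) in RPL36A and chr3:23961483-23961490 (plus) in RPL15.
RPL37: attattagTCACATAgagcttgg
RPL37A: aaactaatTTCACATtaaatgtt
RPS23: cagaacctTTCACATggcacaga
RPL28: gcgtcttgTCACATAcagaaggt
RPL36A: tggttgagTTCACATcatatgtt
RPL15: attttaaaTTCACATAaaaggtga

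All 6 of these members had a log2 fold change above 0, as had 56 of all 81 tested. Of the 6, 4 were called higher (RPL37, RPL37A, RPL28 and RPS23), beside 27.2% of all members. RPS23, at the decoding centre of the 40S subunit, measured 409, 449.6 and 444 CPM in si-N6AMT1 and 425, 399 and 392 CPM in si-CN, with si-N6AMT1 1 below si-CN 1 (log2 fold change 0.10, SE 0.0316, FDR 0.0267). It was called in 2 of 6 fits that left out a library, and DESeq2 gave an adjusted p of 0.225. RPL36A measured 508, 550.3 and 508 CPM against 538, 456 and 483 CPM (0.08, SE 0.0399, FDR 0.146). RPL15, with the 8-base form of the site, measured 890.2, 959 and 924 CPM against 946, 917 and 884 CPM (0.01, SE 0.0263, FDR 0.768). Groups overlapped for all 3. The sites of RPL15 and RPL28 lie only in the longer of their annotated transcripts, and the table does not say which transcripts the counts came from. For RPL37, RPL37A and RPS23 the annotated 3′ UTRs are 7242, 2682 and 2789 bases long. Whether the mRNAs in these cells reach their sites was not tested. Of the members with the largest called rise, RPS29, RPL31 and RPL29 hold no such site.

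Genes around the ribosomal proteins were read from lists of pathway members. Other mRNAs with a TOP motif had 5 of 25 higher (20%) and 7 lower (28.0%). The shares were near the 19.9% and 29.5% among all 2231 other protein-coding genes at 100 CPM or more. Some genes of the TOP list are non-coding or lie below 100 CPM. EIF4A2, an RNA helicase of initiation, rose by 0.16 on the log2 scale (FDR 5.26e-06), and GAS5, a non-coding snoRNA host, by 0.15 (FDR 9.04e-05). NAP1L1, a histone chaperone, rose by 0.13 (FDR 0.000754). EEF1G, a subunit of elongation factor 1, fell by 0.12 (FDR 0.000209). The list thus had members in both directions, with a median of 0.01.

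Of the mTORC1 and LARP1 list, 3 of 16 were higher (18.8%) and 4 lower (25%). The same shares were 9.78% and 11.5% among all genes tested, and 19.9% and 29.5% among other protein-coding genes at 100 CPM or more. Most genes of the mTORC1 and LARP1 list lie below 100 CPM. LARP1B fell by 0.27 (FDR 0.0002), MTOR, the kinase itself, by 0.13 (FDR 0.00264) and LARP4 by 0.11 (FDR 0.0102), and EIF4EBP2, an inhibitor of cap-dependent initiation, rose by 0.11 (FDR 0.00349), all on the log2 scale. LARP1 itself, added here after its values were seen, rose by 0.08 (FDR 0.0279). Of the chaperones and importers of ribosomal proteins, 4 of 19 were higher (21.1%) and 3 lower (15.8%). The import receptors KPNB1 and IPO5 each fell by 0.13 (FDR 8.91e-05 and 0.000387), and NACA, a subunit of the nascent chain complex, rose by 0.10 (FDR 0.00203).

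The factors that bind finished or maturing subunits had 0 of 13 higher and 6 lower (46.2%), beside 9.78% and 11.5% of all genes tested. Among the 2231 other protein-coding genes at 100 CPM or more, 19.9% were higher and 29.5% lower, though some of the 13 factors lie below that level. NMD3, the export adapter of the 60S subunit that leaves it when RPL10 is loaded, measured 97.7, 98.5 and 102 CPM in si-N6AMT1 and 147, 149 and 149.99 CPM in si-CN, a log2 fold change of -0.58 (SE 0.0270, FDR 4.72e-13). ZNF622, which joins the 60S subunit at a late step, fell by 0.24 (FDR 7.72e-06), SERBP1, which binds idle ribosomes, by 0.11 (FDR 0.000224) and RIOK3, a kinase of the 40S subunit, by 0.11 (FDR 0.00502), on the log2 scale. The fall of NMD3 was larger than that of any ribosomal protein. Of the 20 members whose variants are known causes of Diamond-Blackfan anaemia, 7 were higher (35.0%, near the 27.2% of all members) and 0 lower. RPS29, RPL31, RPL35 and RPL27 had the lowest FDR in that list. RPL35 rose by 0.11 (FDR 0.00139) and RPL27 by 0.09 (FDR 0.0022).

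Reads that fit several transcripts are shared out by kallisto's estimate, so members with near-identical copies have uncertain counts. The 1591 listed pseudogenes took 0.0580% to 0.0617% of library counts. They exceeded 5% of the parent's own counts for 2 members, RPL23A, where they came to 118%, and RPL9, where they came to 23.6%, and neither was called. For RPS2 the share was 3.50%. Of the readthrough genes, RPS10-NUDT3 had 3.63% of the counts of RPS10 and the other two had 0.325% of RPL17 and 0.300% of RPL36A.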

How the data were processed

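Estimated counts (expected counts) per gene, in whole numbers and without normalization, were deposited by the authors. Their paired-end reads of 151 bp had been trimmed (Trim Galore v0.6.5), quantified with kallisto v0.46.0 against GENCODE v33 (hg19) and summed over the transcripts of a gene. The strand option is not given in the sources used here. All 6 columns were matched to samples by name, with 0 left over. Symbols were taken from GENCODE v44 on GRCh37, which matched 62149 of 62438 identifiers.

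The test across genes was run in R v4.3.3 with edgeR v4.0.16, using its expression filter at a minimum count of 10, TMM scaling and the quasi-likelihood test without covariates, at FDR 0.05 over all genes tested. The procedure was run on simulated data with changes larger than those of the members called. That run therefore does not bear on calls of their size. The size of a log2 fold change over the square root of F gave its standard error. TPM was computed from the shortest annotated transcript that holds the reference coding length. Per-library shares were compared by an exact permutation test.

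Values per library are given for the 8 largest called changes in each direction, the 5 highest and 3 lowest levels, the stalk proteins and RPSA, RPL5 and RPL11, paralogs, members with the searched 3′ UTR sequences, and up to 4 genes of each list. The members and lists were chosen with earlier results of these data known. Alternatives were RLE factors, DESeq2 v1.42.0, limma-voom (limma v3.58.1), no filter, other library sizes, added pseudogene counts, the replicate block, GC correction and each library left out. Protein sequences were not used here, and a few genes are counted but not reported by name.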

Additional observations from a re-analysis of the deposited data

How the results depend on the processing

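Against 22 members higher and 7 lower, RLE size factors, member or mitochondrial counts left out of library sizes, and pseudogene counts added to their parents each gave 22 and 7. DESeq2 gave 15 and 6, both on the same genes and on genes of at least 1 TPM, limma-voom 23 and 7, and no expression filter 25 and 8. Over all genes DESeq2 called 955 higher and 1275 lower, against 1694 and 1993 with edgeR. Leaving out each library in turn gave 9 to 31 members higher and 4 to 7 lower. The cause was not tested. Replicate numbers are shared between groups, but same-numbered libraries did not deviate together (correlations of deviations from the group means -0.0422 to 0.00997), so the numbers were not taken as pairs. The fit with a replicate block gave 18 higher and 5 lower, and 18 and 6 with GC correction. Scaling by the summed member counts and GC correction without the block were chosen after seeing the data. They gave 10 higher and 5 lower, and 22 higher and 6 lower. The first of these fixes the members' summed counts by construction, and their median log2 fold change under it was 0.02. The members' median log2 fold change of 0.04 ranged from 0.01 to 0.06 over the fits without a library and stayed above 0 in every fit run. The difference in share of counts, 0.0773 percentage points, ranged from 0.0351 to 0.135 without a library. Of the genes with values per library, the 18 called kept their call in 275 combinations of gene and setting and lost it in 49, and the 11 not called stayed so in 191 and gained a call in 6. At this depth RPL3L and RPL39L, the tested members with the fewest counts, could not show changes of the size seen in the others.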
